A study of Homo sapiens with 14 samples.

Results

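Fucotrim I and SGN-2FF, 2 metabolic inhibitors of fucosylation, were compared directly with each other in CWR22Rv1, an established line of human prostate cancer cells. The comparison used 6 of the 14 RNA-seq libraries in the series, 3 from cells kept for 72 h in 30 μM Fucotrim I and 3 from cells kept for 72 h in 100 μM SGN-2FF, and was fitted without any DMSO library. Another 3 libraries from cells kept for 72 h in DMSO, the vehicle, served to place both inhibitors. They also entered the scaling of the printed levels and some alternative fits. The labels call the libraries of a group biological replicates. The genes were those found under the same NCBI gene number in both deposited count tables, 27819 of the 28395 in the SGN-2FF table, and 14053 of them passed the filter on low counts and were tested. The doses differ, so the compound and its dose cannot be told apart. The sources used here do not say whether the libraries of both inhibitors were prepared or sequenced together, so such a difference cannot be told apart from the inhibitor either.

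Fucose is attached to proteins and lipids by fucosyltransferases, which take it from GDP-fucose. Cells make most GDP-fucose de novo from GDP-mannose, through the dehydratase GMDS and the epimerase-reductase GFUS, and can also salvage free fucose through the kinase FCSK and the pyrophosphorylase FPGT. SGN-2FF, or 2-fluorofucose, blocks the fucosyltransferases once the salvage enzymes have turned it into a GDP sugar. Feedback from this sugar also slows the de novo route. Fucotrim I acts earlier, since it was made from rhamnose-1-phosphate as a compound against GMDS. Lower GDP-mannose has been reported with it too, and was put down to its likeness to mannose-1-phosphate. GDP-mannose is the donor for the mannose of N-glycans and glycosyl-phosphatidylinositol anchors. Glycoproteins that fold poorly in the endoplasmic reticulum (ER) are handled by chaperones and a degradation system, whose genes are controlled by the unfolded protein response. The authors reported less binding of a fucose-recognising lectin to CWR22Rv1 cells with both inhibitors. In their dose series the loss with Fucotrim I was too small to determine the inhibitory concentrations given for 2-fluorofucose. They also reported reduced proliferation and apoptosis of this line with Fucotrim I, and no effect of SGN-2FF on proliferation or colony formation. How far the differences below go with fucose loss, growth or cell death was not tested.

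Luminal prostate markers were abundant in all 9 libraries. All 11 luminal markers (among them KLK3, KRT8 and KRT18) were tested, and their summed level in CPM (counts scaled to library size by TMM factors) was 3981 to 4059 with Fucotrim I, 3692 to 3796 with SGN-2FF and 3064 to 3157 in DMSO, with KRT8 the most abundant. The summed level of 6 leukocyte markers was 5.87 to 9.18 CPM in these 9 libraries, most of it CD68, CD3E had no count and PTPRC had at most 3. The 4 endothelial markers summed to at most 0.254 CPM. The basal markers KRT5, KRT14 and TP63 had at most 5 counts in any library, and the summed basal level of 60.9 to 81.7 CPM came mostly from DST. The 7 neuroendocrine markers summed to 370 to 435 CPM, led by ENO2, with at most 1 count of CHGA, and the 6 fibroblast markers to 19.8 to 27.4 CPM, led by COL1A1. Between the inhibitors the only tested leukocyte marker, CD68, was lower with Fucotrim I (-0.43), with 81.6% of its exon bases shared with other genes. The neuroendocrine marker SYP was higher (0.19). In edgeR 0 of 3 tested basal and 0 of 3 tested fibroblast markers were called, beside 25.1% of all tested genes. With the correction for GC content described below, 1 basal marker was called higher and 1 lower. With single libraries left out, 0 to 1 basal markers were called in either direction and 0 to 1 fibroblast markers were higher. The calls of CD68 and SYP were each lost in 4 alternative fits, 3 of which left out 1 library. In RNA from whole cultures, fewer cells of a type and less RNA per cell cannot be told apart.

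The libraries held 13866690, 14947100 and 12553094 counts on the shared genes with Fucotrim I and 13115887, 16569554 and 12943538 with SGN-2FF. Of the 14053 genes tested, 3532 (25.1%) passed the quasi-likelihood test of edgeR at a p under 0.05 after adjustment by the method of Benjamini and Hochberg, and are called here. With Fucotrim I, 1825 of them (13.0% of those tested) were higher and 1707 (12.1%) were lower than with SGN-2FF. Most differences were small, with a median size of 0.31 on the log2 scale among called genes. Beyond a log2 fold change of 0.58 in either direction, 306 genes (2.18%) were higher and 246 (1.75%) lower. The normalised counts of both groups did not overlap for 5540 genes (39.4%), and 3368 of the called genes were among them. The median log2 fold change of all tested genes was 0.00. As a placement, 6209 genes passed the same test for Fucotrim I against DMSO and 2928 for SGN-2FF against DMSO, in separate fits that share the DMSO libraries.

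**Figure D1:**
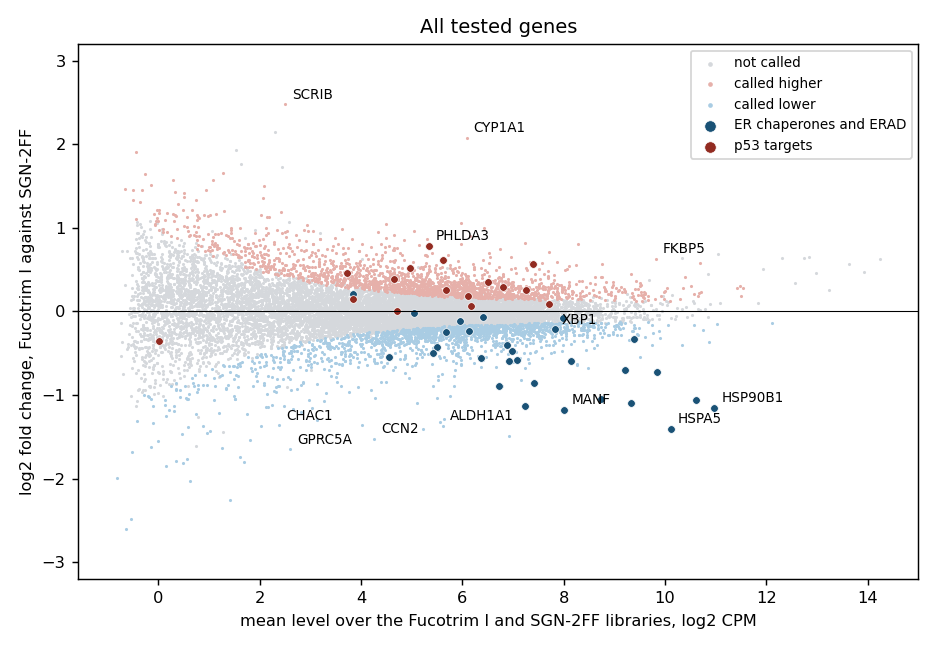
Each point is 1 of the 14053 tested genes, with the mean level over the 6 inhibitor libraries in log2 CPM on the x axis and the log2 fold change of Fucotrim I against SGN-2FF on the y axis. Abundant ER chaperone genes (dark blue) such as HSPA5 at -1.40 and HSP90B1 at -1.15 lie far below 0 at high levels, and 11 of 16 p53 targets (dark red) are called above 0.

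The direction of the calls moved with the base composition of the transcripts. Of the 14053 genes, 13756 had a transcript GC content in the annotation. Of the 4586 with the lowest GC content 3.79% were called higher and 21.1% lower with Fucotrim I, and of the 4585 with the highest GC content 25.2% were called higher and 4.54% lower. The median log2 fold change went from -0.09 in the GC-poor class to 0.12 in the GC-rich class. Against DMSO the medians of the GC-poor and GC-rich classes were -0.15 and 0.19 with Fucotrim I and -0.05 and 0.07 with SGN-2FF. The GC-rich genes took 38.0, 35.6 and 37.7% of the counts outside the mitochondrial genome with Fucotrim I, 35.4, 35.1 and 33.6% with SGN-2FF and 34.0, 32.6 and 34.1% in DMSO. An added fit that removed the relation to GC content within each library gave 1664 higher and 1835 lower genes, of which 2504 in all were also called without the correction. For each gene group below other than the mitochondrial mRNAs, which have no GC value here, the count with this correction stands beside the main count, and whether the GC relation has a technical or a biological source was not tested.

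**Figure D2:**
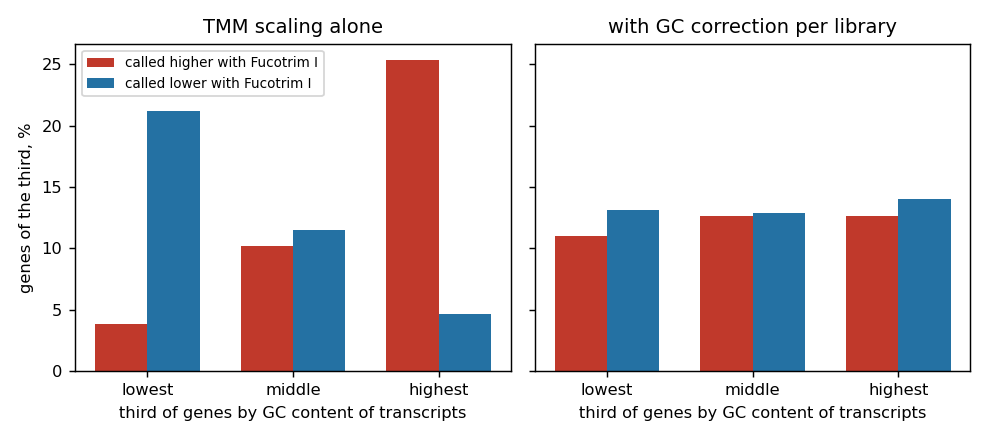
Bars give the percentage of genes called higher (red) or lower (blue) with Fucotrim I in 3 equal classes of 13756 genes by transcript GC content, with the main scaling on the left and after the GC correction per library on the right. Both sides come from fits of these 13756 genes only, so that the left differs slightly from the fit of all 14053. The rise from 3.84% to 25.4% of higher calls across the classes on the left is absent on the right, where they run from 11.0% to 12.6%.

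Genes for ER chaperones and ER-associated degradation were lower with Fucotrim I than with SGN-2FF, and their list had the lowest median of the 27 lists with tested members. Of 30 genes 29 were tested, since DERL3 had no count, and of these 24 were called lower and 0 higher, beside 12.1% and 13.0% of all tested genes, and the median log2 fold change of the list was -0.56. The count of lower members was 22 to 24 when each library was left out in turn and 24 with the GC correction, which also called 1 member higher. The median of the list was -0.64 for Fucotrim I against DMSO and -0.06 for SGN-2FF against DMSO.

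HSPA5, the gene of the chaperone BiP, was at 491, 666 and 659 CPM with Fucotrim I, at 1598, 1622 and 1594 CPM with SGN-2FF and at 1705, 1691 and 1648 CPM in DMSO. All 3 Fucotrim I libraries lay far below the SGN-2FF libraries, and the first of them was the lowest. HSPA5 lies on chromosome 9 (125234853 to 125241343, GRCh38.p14), and its log2 fold change against SGN-2FF was -1.40, with a standard error of 0.12 and an adjusted p of 0.000349 in edgeR. HSP90B1, which encodes the chaperone GRP94, was at 1136, 1336 and 1266 CPM with Fucotrim I and at 2722, 2774 and 2826 CPM with SGN-2FF, or -1.15 on the log2 scale with a standard error of 0.05 (adjusted p = 3.98e-13, edgeR). CALR, the gene of calreticulin, a chaperone that binds the glucose-trimmed sugars of glycoproteins, was at 960, 1022 and 1050 CPM with Fucotrim I and at 2103, 2136 and 2083 CPM with SGN-2FF, which gave -1.06 on the log2 scale. In DMSO HSP90B1 was at 2805 to 3000 CPM and CALR at 2189 to 2277 CPM, so that only 1 SGN-2FF library of HSP90B1 reached the DMSO range.

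Other chaperones and folding enzymes fell as well. The log2 fold changes were -1.18 for the secreted ER stress protein gene MANF, -1.10 for the disulfide isomerase gene PDIA4, -1.05 for HYOU1, which encodes a nucleotide exchange factor of BiP, -0.89 for the BiP co-chaperone gene DNAJB11, -0.85 for PDIA6 and -0.72 for calnexin (CANX). HERPUD1, a scaffold of the degradation complex, was at 82.6, 102 and 99.5 CPM with Fucotrim I and 204, 217 and 200 CPM with SGN-2FF, a log2 fold change of -1.13. Other parts of the degradation system fell less, with -0.58 for SEL1L and -0.40 for its ubiquitin ligase partner SYVN1. The smallest called difference in the list was that of XBP1, a transcription factor of the unfolded protein response, which was at 196, 220 and 211 CPM with Fucotrim I and 243, 245 and 242 CPM with SGN-2FF (log2 fold change -0.22, adjusted p = 0.00342, edgeR, and -0.14 with the GC correction). The counts do not separate the spliced and unspliced forms of XBP1. The 5 members that did not pass were EDEM1 (-0.12), OS9 (-0.08), DERL1 (-0.07), EDEM2 (-0.02) and the oxidoreductase gene ERO1B (0.20).

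**Figure D3:**
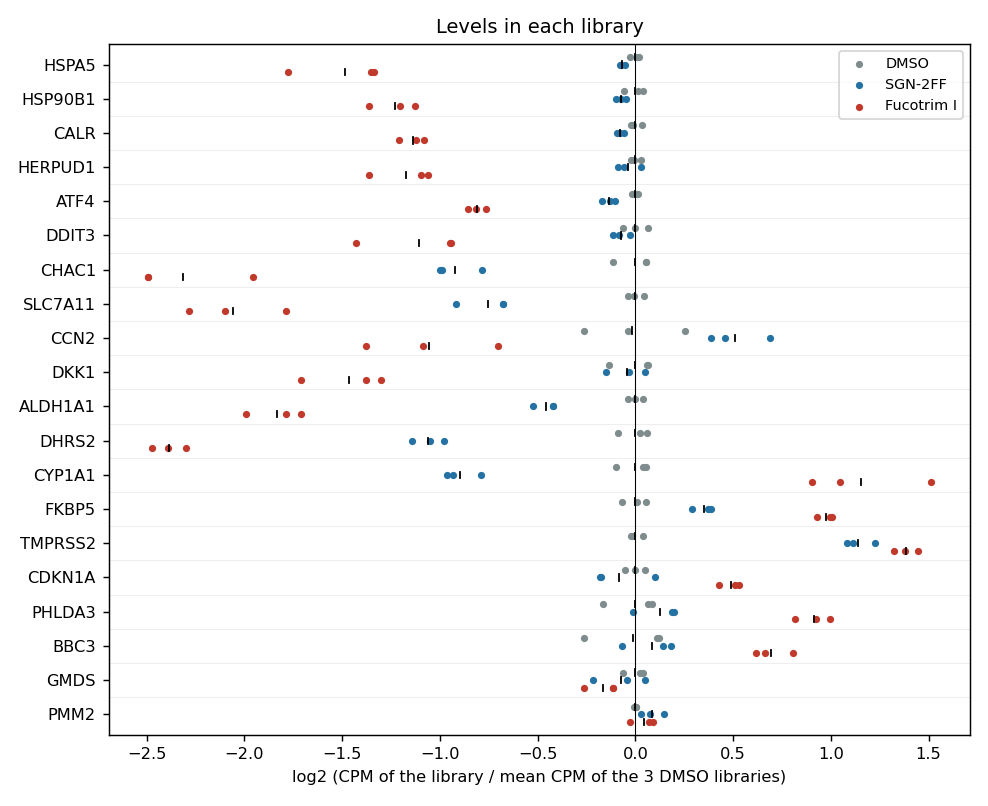
Each point is 1 library, placed on the x axis by the log2 of its CPM over the mean CPM of the 3 DMSO libraries, for 20 genes on the y axis, with a black tick at the mean of the 3 points of a group. For HSPA5, HSP90B1, CALR, HERPUD1, ATF4 and DDIT3 the SGN-2FF points (blue) lie near the DMSO points (grey) and the Fucotrim I points (red) far to their left, whereas for CHAC1, SLC7A11, ALDH1A1 and DHRS2 the SGN-2FF points lie between the other groups.

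Promoter sequence was examined because these genes moved together. The ER stress element, searched as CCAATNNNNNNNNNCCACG on both strands in the 250 bases before each RefSeq gene start (GRCh38.p14), was present in 0.0806% of 27305 promoters and in 0.126% of the promoters of 11145 tested genes. Among the 27 ER chaperone and degradation genes with a promoter in the table it was present in 7 (25.9%), namely HSPA5, HSP90B1, CALR, CANX, CRELD2, XBP1 and ERO1B. Of these 7 genes 6 were called lower, with a median log2 fold change of -0.72 over the 7, and 17 of the 20 genes without a match were also called lower, with a median of -0.52. The element had no match in the promoters of the ATF4 branch, aminoacyl-tRNA synthetase or N-glycan lists described below, and 1 in the mannose users, in ALG12 (-0.12), which was not called. A match is a description of the sequence and not a measured binding site. The ER list was drawn up around the unfolded protein response with earlier results of these data known. Its share of matches is therefore no test of a shared response in these data. The stretches around the matches are shown for 6 genes that fell with Fucotrim I relative to SGN-2FF, 5′ to 3′ on the strand of the gene, with the element or its reverse complement in capitals. HSP90B1 held 2 matches. The regions are chr9:125241351-125241449 for HSPA5 (minus strand), chr12:103930176-103930379 for HSP90B1 (plus), chr19:12938359-12938442 for CALR (plus), chr5:179698738-179698836 for CANX (plus), chr22:49918514-49918612 for CRELD2 (plus) and chr22:28800570-28800661 for XBP1 (minus).
HSPA5: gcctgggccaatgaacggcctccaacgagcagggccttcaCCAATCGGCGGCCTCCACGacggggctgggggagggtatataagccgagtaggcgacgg
HSP90B1: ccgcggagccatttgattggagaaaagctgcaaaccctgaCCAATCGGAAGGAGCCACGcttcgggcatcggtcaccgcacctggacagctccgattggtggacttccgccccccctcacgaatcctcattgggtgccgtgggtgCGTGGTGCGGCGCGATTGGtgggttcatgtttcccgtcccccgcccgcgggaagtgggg
CALR: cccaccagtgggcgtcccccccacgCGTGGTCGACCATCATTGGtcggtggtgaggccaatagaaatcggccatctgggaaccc
CANX: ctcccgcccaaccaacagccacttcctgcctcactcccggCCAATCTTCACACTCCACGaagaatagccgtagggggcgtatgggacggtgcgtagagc
CRELD2: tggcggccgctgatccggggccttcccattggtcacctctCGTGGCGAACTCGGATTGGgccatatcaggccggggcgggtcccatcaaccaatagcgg
XBP1: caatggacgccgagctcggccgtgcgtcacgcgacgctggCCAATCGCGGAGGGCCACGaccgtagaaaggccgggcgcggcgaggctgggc

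Genes of the ATF4 branch, which serves amino acid supply and the integrated stress response, were also lower with Fucotrim I, and here SGN-2FF itself lay below DMSO for several members. Of 25 tested members 16 were called lower and 0 higher (12.1% and 13.0% of all tested genes), with a median of -0.29. The count of lower members was 15 to 16 with single libraries left out and 19 with the GC correction. Against DMSO the medians were -0.54 for Fucotrim I and -0.24 for SGN-2FF. ATF4, the transcription factor itself, was at 266, 273 and 283 CPM with Fucotrim I and 447, 439 and 427 CPM with SGN-2FF, which is -0.68 on the log2 scale with a standard error of 0.05 (adjusted p = 5.69e-10, edgeR). CHAC1, whose product degrades glutathione, was at 2.54, 3.69 and 2.54 CPM with Fucotrim I, 7.19, 8.30 and 7.16 CPM with SGN-2FF and 14.9, 13.2 and 14.8 CPM in DMSO. The 3 groups of CHAC1 did not overlap, and its log2 fold change against SGN-2FF was -1.36.

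SLC7A11, the cystine transporter gene, showed the same order, with 24.5, 34.6 and 27.9 CPM with Fucotrim I, 63.2, 74.8 and 74.8 CPM with SGN-2FF and 116 to 123 CPM in DMSO (log2 fold change against SGN-2FF -1.28). The stress factor gene DDIT3 had a log2 fold change of -1.02, and 31.6% of its exon bases lie opposite other annotated genes. The asparagine synthetase gene ASNS had -0.56, and it shares 49.3% of its exon bases with another annotated gene on the same strand. The secreted glycoprotein gene STC2 had -0.73 and the serine synthesis gene PSAT1 -0.48. TRIB3, a pseudokinase that ATF4 induces, was at 110, 99.1 and 102 CPM with Fucotrim I and 119, 116 and 112 CPM with SGN-2FF and did not pass (-0.15, adjusted p = 0.0573, edgeR), although it passed with the GC correction (-0.29). ATF3 (-0.12), SESN2 (-0.05), PPP1R15A (0.08) and ATF5 (0.13) did not pass either.

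Aminoacyl-tRNA synthetases, which load tRNAs and many of which are ATF4 targets, followed in part. Of 19 tested, 10 were called lower, led by AARS1 (-0.64), YARS1 (-0.50), TARS1 (-0.49) and GARS1 (-0.48), and 8 were not called, with a median of -0.20 over the list, beside 12.1% lower among all tested genes. The synthetase gene called higher, CARS1, was at 1.61 to 3.62 CPM with Fucotrim I and 1.38 to 1.69 CPM with SGN-2FF, its groups overlapped, and its call was lost in 4 of the alternative fits. VARS1 had at most 6 counts in any library and was not tested. Whether reads of CARS1 and VARS1 were lost to other copies or contigs was not tested either. With the GC correction 11 were lower and 2 higher.

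The amino acid response core, searched as TGATGCAA on both strands in the same promoters, was present in 0.82% of 27305 promoters and 0.386% of those of tested genes. It was found in CHAC1 of 20 ATF4 branch genes with a promoter, in AARS1 and IARS1 of 16 synthetase genes and in HERPUD1 of 27 ER genes, and these 4 genes were called lower with log2 fold changes of -1.36, -0.64, -0.35 and -1.13. FUT1 and HK1 also held it and were not called. No listed gene held both motifs. The stretches around the match of CHAC1 (chr15:40953222-40953309, plus strand), HERPUD1 (chr16:56931926-56932013, plus) and AARS1 (chr16:70289646-70289733, minus) are shown 5′ to 3′ on the strand of the gene, with the reverse complement of the core in capitals.
CHAC1: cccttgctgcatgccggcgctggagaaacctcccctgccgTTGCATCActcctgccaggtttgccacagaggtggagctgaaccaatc
HERPUD1: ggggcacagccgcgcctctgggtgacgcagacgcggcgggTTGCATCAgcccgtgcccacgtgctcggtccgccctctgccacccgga
AARS1: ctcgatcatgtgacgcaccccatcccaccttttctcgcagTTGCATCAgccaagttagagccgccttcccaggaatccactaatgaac

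Genes that bring proteins into the ER and carry them out were lower with Fucotrim I by smaller amounts. Of 31 genes for translocation and COPII export 18 were called lower and 1 higher, with a median of -0.18, beside 12.1% and 13.0% of all tested genes. SEC23A, a coat component of COPII vesicles, was at 51.6, 55.0 and 43.5 CPM with Fucotrim I and 74.3, 75.6 and 76.7 CPM with SGN-2FF (log2 fold change -0.59), and MCFD2, a subunit of a cargo receptor, had -0.48. The gene called higher was SSR4 (0.30), a translocon subunit whose groups overlapped and whose call was lost without the third library of either inhibitor. SEC61A1 (-0.14), SEC61B (-0.09) and SEC61G (0.01), which form the translocation channel, did not pass. The list has a median GC content of 42.9%, below the 48.0% of all tested genes. With the GC correction it still had 18 lower members and 2 higher, and with single libraries left out 13 to 18 lower.

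N-glycan assembly and transfer, the step that uses mannose-containing precursors, had 12 of 29 members lower and 0 higher, with a median of -0.07, where 12.1% and 13.0% of all tested genes were lower and higher. The members that fell were led by subunits of the oligosaccharyltransferase, which moves the glycan to the protein, with MAGT1 at 96.2, 102 and 97.5 CPM with Fucotrim I against 137, 141 and 144 CPM with SGN-2FF (log2 fold change -0.51). Its catalytic subunits STT3B (-0.48) and STT3A (-0.38), and DDOST (-0.36), OSTC (-0.35), RPN1 (-0.17) and RPN2 (-0.12), were also lower, whereas the other subunits TUSC3 (-0.02), OST4 (-0.01), KRTCAP2 (0.03) and DAD1 (0.04) did not pass. DPAGT1 (-0.24), which starts the lipid-linked precursor, and UGGT1 (-0.22), which marks unfolded glycoproteins, were lower as well, although the groups of DPAGT1 overlapped. The dolichol kinase gene DOLK (0.14) did not pass. The list had 13 lower members with the GC correction, and with single libraries left out 9 to 12 were lower and 0 to 2 higher. Its median GC content was 45.0%.

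Transcripts of the targeted pathway differed little between the inhibitors. GMDS (chromosome 6, 1623806 to 2245605) was at 13.6 to 15.1 CPM with Fucotrim I, 14.01 to 16.9 CPM with SGN-2FF and 15.6 to 16.8 CPM in DMSO, and its libraries overlapped. The log2 fold change of GMDS was -0.09, with a 95% interval of -0.30 to 0.12 (adjusted p = 0.564, edgeR). GFUS had 3 to 15 counts per library and could not be tested. Whether reads of GFUS were lost to other copies or contigs in the authors' mapping was not tested, so its level is not read from these counts. In the salvage route FCSK was at 45.3, 45.1 and 46.7 CPM with Fucotrim I and 40.2, 38.6 and 36.2 CPM with SGN-2FF (log2 fold change 0.25, adjusted p = 0.00950, edgeR), but its call was lost without the third SGN-2FF library and with the GC correction (0.10). FPGT (0.00), the Golgi transporter gene SLC35C1 (-0.02), the core fucosyltransferase gene FUT8 (-0.15) and POFUT1 (-0.04), which puts fucose on Notch receptors, did not pass.

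Of all 16 tested genes for the synthesis, use and removal of fucose, 4 were called higher (SLC35C2, FUCA1, FCSK and FUOM) and 0 lower, beside 13.0% and 12.1% of all tested genes, and the median was 0.02. Without the third SGN-2FF library 0 were called higher. The FUOM call was also lost without the third Fucotrim I or the second SGN-2FF library. With the GC correction FUOM had 0.09 (adjusted p = 0.396, edgeR). Of the 13 members with a GC value 1 was called higher with the GC correction, and SLC35C2 was not among those 13. The log2 fold changes of those 4 genes were 0.20 to 0.28, and the other 12 lay between -0.23 and 0.23.

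In GDP-mannose synthesis, the phosphomannomutase gene PMM1 was the only one of 8 called, at 68.8 to 73.7 CPM with Fucotrim I and 58.1 to 58.9 CPM with SGN-2FF (log2 fold change 0.29, adjusted p = 0.00112, edgeR). PMM2 (-0.03), the main phosphomannomutase, MPI (-0.05) and GMPPB (-0.02), which makes GDP-mannose, did not pass, but GMPPB was called lower with the GC correction (-0.15). GMPPB shares 42.6% of its exon bases with another gene on the same strand. Of 21 genes whose products use mannose donors or dolichol-phosphate-mannose, 5 were higher (DPY19L2, DPM3, PIGZ, DPM2 and MPDU1) and 0 lower, with a median of 0.01, beside 13.0% and 12.1% of all tested genes. Leaving out single libraries gave 3 to 6 higher. DPM3 and DPM2 encode small subunits of the dolichol-phosphate-mannose synthase and had log2 fold changes of 0.56 and 0.25, while its catalytic subunit DPM1 had -0.04 and did not pass. DPM3 was at 56.6, 45.2 and 56.7 CPM with Fucotrim I and 34.3, 37.5 and 35.5 CPM with SGN-2FF. With the GC correction the mannose users had 5 higher and 2 lower members and GDP-mannose synthesis 1 higher and 2 lower.

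Notch receptors carry O-linked fucose that Fringe enzymes extend. Of 15 tested genes of the pathway 4 were higher and 0 lower, with a median of 0.15, beside 13.0% and 12.1% of all tested genes and 25.2% higher among the GC-rich genes. These were the target gene HES4 (0.65), the Fringe genes RFNG (0.52) and LFNG (0.40) and the ligand gene JAG2 (0.32), while the target genes HES1 (0.12) and HEY1 (0.03) and the receptor genes NOTCH1 (0.15), NOTCH2 (-0.04) and NOTCH3 (0.12) did not pass. RFNG was at 67.9, 67.8 and 68.9 CPM with Fucotrim I and 48.1, 49.1 and 45.7 CPM with SGN-2FF, and 21.6% of its exon bases lie opposite other genes. The median GC content of the list was 63.1%, far above that of all tested genes, and with the GC correction it had 4 higher and 2 lower members, with HES4 at 0.29 and RFNG at 0.30.

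**Figure D4:**
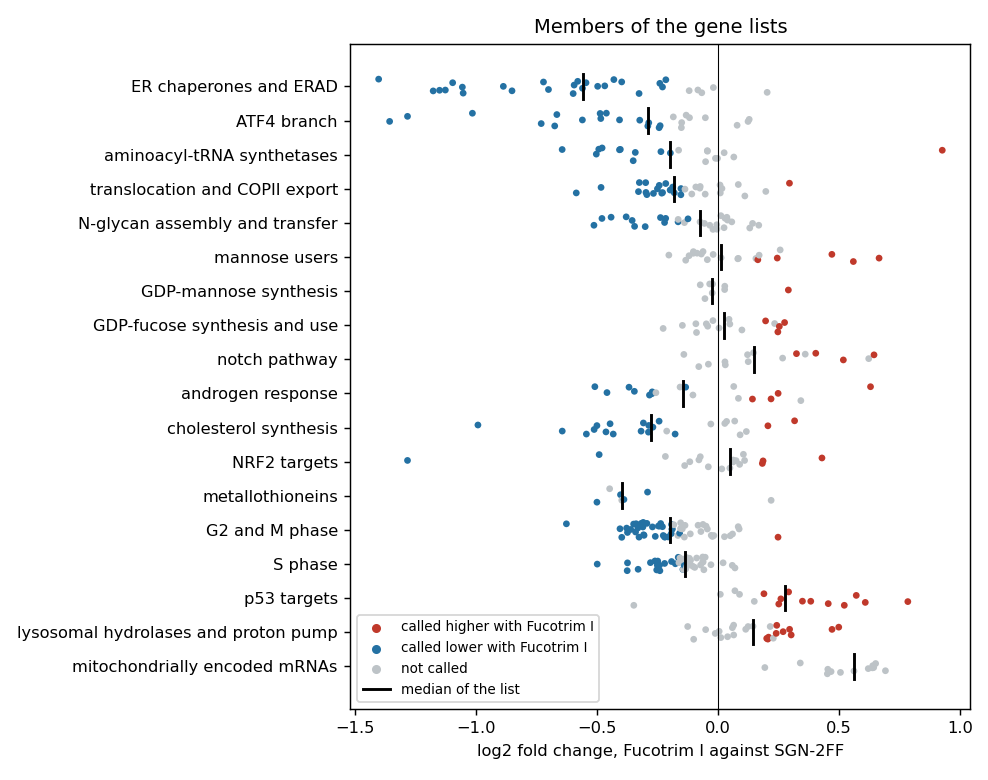
Each point is a tested member of the gene list named on the y axis, placed by its log2 fold change of Fucotrim I against SGN-2FF and coloured by its call, with a black line at the median of the list. The ER chaperone list has its median at -0.56 and p53 targets theirs at 0.28, while the lists for GDP-fucose and GDP-mannose have theirs at 0.02 and -0.02.

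Androgen response genes differed between the inhibitors in both directions. Over 18 tested genes the median log2 fold change against DMSO was 0.31 for Fucotrim I and 0.42 for SGN-2FF, with members below 0 in both, such as ELL2 (-0.31) with Fucotrim I and ABCC4 (-0.31) with SGN-2FF. With Fucotrim I 4 were higher and 8 lower than with SGN-2FF, beside 13.0% and 12.1% of all tested genes, and the median was -0.15. Leaving out single libraries gave 1 to 4 higher and 6 to 9 lower. FKBP5, a co-chaperone of steroid receptors, was at 1116, 1110 and 1059 CPM with Fucotrim I, 718, 680 and 727 CPM with SGN-2FF and 530 to 578 CPM in DMSO. The groups of FKBP5 did not overlap, and it was higher with Fucotrim I than with SGN-2FF by 0.63 on the log2 scale, with a standard error of 0.05 (adjusted p = 1.38e-09, edgeR). TMPRSS2, a protease gene, was higher with Fucotrim I by 0.25 on the log2 scale, and this call was lost without the second SGN-2FF library (adjusted p = 0.0534 in edgeR).

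KLK4, a kallikrein gene, was at 278, 287 and 306 CPM with Fucotrim I and 409, 410 and 380 CPM with SGN-2FF (log2 fold change -0.46), and KLK2 had -0.27 (-0.17 without the first Fucotrim I library), a call that was lost with the GC correction (-0.29, adjusted p = 0.0557, edgeR). NDRG1 (-0.51), PLPP1 (-0.37), HOMER2 (-0.35) and SLC45A3 (-0.27) were lower as well. KLK3, which encodes prostate-specific antigen, was at 59.5, 77.5 and 68.5 CPM with Fucotrim I, 79.9, 73.3 and 76.7 CPM with SGN-2FF and 27.7 to 32.4 CPM in DMSO, and its inhibitor groups overlapped (-0.16, adjusted p = 0.129, edgeR). Without the second Fucotrim I library KLK3 was called lower (-0.26, adjusted p = 0.00498, edgeR). Among the 11 luminal markers, beside 13.0% higher and 12.1% lower of all tested genes, KRT8 (0.31), KRT18 (0.32) and HOXB13 (0.29) were higher, and 3 were lower, KLK2 and EPCAM (-0.21, lost without the second SGN-2FF library) among them. With single libraries left out 1 to 4 luminal markers were lower, and corrected for GC content 4 were higher and 2 lower. With the GC correction the androgen list had 6 higher and 7 lower members.

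Sterol genes were lower with Fucotrim I. Of 24 genes for cholesterol synthesis and its control 15 were called lower and 2 higher (12.1% and 13.0% of all tested genes), with a median of -0.28, and the medians against DMSO were -0.38 for Fucotrim I and -0.14 for SGN-2FF. HMGCS1, an early enzyme of the pathway, was at 96.7, 104 and 79.3 CPM with Fucotrim I, 129, 126 and 129 CPM with SGN-2FF and 158 to 165 CPM in DMSO (log2 fold change between the inhibitors -0.45). Other genes lie opposite 37.7% of its exon bases. Squalene epoxidase (SQLE) had -0.64, INSIG1 -0.51 and the sterol carrier STARD4 -0.50. TM7SF2 (0.32) and PMVK (0.21) were higher, but with the GC correction TM7SF2 had 0.13 and PMVK lost its call, as it did without the first Fucotrim I or the third SGN-2FF library. With that correction 16 members were lower and 1 higher, and with single libraries left out 11 to 14 were lower and 1 to 4 higher.

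Targets of p53 were higher with Fucotrim I. Of 16 tested, 11 were called higher and 0 lower (13.0% and 12.1% of all tested genes), with a median of 0.28, and the medians against DMSO were 0.23 for Fucotrim I and -0.00 for SGN-2FF. PHLDA3, an inhibitor of AKT signalling, was at 54.1, 47.7 and 51.6 CPM with Fucotrim I and 31.1, 30.9 and 26.9 CPM with SGN-2FF, higher by 0.79 on the log2 scale with a standard error of 0.08 (adjusted p = 1.15e-07, edgeR). CDKN1A, which encodes the cell cycle inhibitor p21, was at 208, 194 and 205 CPM with Fucotrim I, 154, 127 and 127 CPM with SGN-2FF and 139 to 149 CPM in DMSO (0.57). The DMSO libraries of CDKN1A lay within the SGN-2FF range and below all Fucotrim I libraries. The cell death genes BBC3 (0.61, and 0.33 with the GC correction), FAS (0.46) and BAX (0.35) and the mitochondrial reductase gene FDXR (0.52) were higher too, whereas MDM2 (0.09), BTG2 (0.01), SESN1 (0.15), XPC (0.07) and TP53I3 (-0.35) did not pass. The median GC content of the list was 51.4%, and it had 11 higher and 0 lower members with the GC correction and 8 to 11 higher with single libraries left out.

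Within the BCL2 family of 18 tested genes, BBC3 and BAX, which promote cell death, were higher, and BAK1 (-0.32), which also promotes it, BCL2L2 (-0.24) and MCL1 (-0.18), which oppose it, were lower. The calls of BAK1 and BCL2L2 were lost without the second SGN-2FF library, and 1 to 3 members were lower with single libraries left out. BCL2L1 (-0.04) and BCL2 (-0.22) did not pass. The 2 higher and 3 lower members stand near the 13.0% and 12.1% of all tested genes. The family median was 0.03, and with the GC correction 2 members were higher and 4 lower.

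Cell cycle genes were modestly lower with Fucotrim I. Of 54 genes of the G2 and M phase 32 were lower and 1, the tubulin gene TUBB4B (0.25, and 0.14 with the GC correction), higher, with a median of -0.20, and of 42 tested S phase genes 17 were lower and 0 higher, with a median of -0.14. CENPE, a kinetochore motor, was at 40.9, 54.1 and 52.0 CPM with Fucotrim I and 75.2, 71.6 and 80.9 CPM with SGN-2FF (log2 fold change -0.63). CCNB1, the mitotic cyclin, had -0.27 (adjusted p = 0.000530, edgeR), and ECT2, needed for cytokinesis, -0.41. The proliferation marker MKI67 was at 396, 368 and 387 CPM with Fucotrim I and 379, 390 and 396 CPM with SGN-2FF, so the groups overlapped (-0.02, adjusted p = 0.824, edgeR). TOP2A (-0.08), CDK1 (-0.04) and PCNA (-0.10) did not pass, although TOP2A (-0.14) and PCNA (-0.17) did without the second Fucotrim I library, and the call of MCM5 (-0.14) was lost in 12 alternative fits. CDKN1B, the gene of the cell cycle inhibitor p27, was higher by 0.22. Both lists are poor in GC, with medians of 43.0% and 43.8%, and 12.1% of all tested genes and 21.1% of the GC-poor class were lower. With the GC correction 29 genes of G2 and M phase and 15 of S phase were lower, and with single libraries left out 26 to 35 and 10 to 19.

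Lysosomal genes were higher in part, with 10 of 25 tested members called higher (13.0% of all tested genes), 0 lower and a median of 0.14. The lysosomal mannosidase gene MAN2B1 (0.50) was at 109, 97.1 and 100 CPM with Fucotrim I and 77.6, 70.3 and 69.6 CPM with SGN-2FF, and 21.2% of its exon bases are shared with other genes. TFEB (0.47), a regulator of lysosomal genes, and the cathepsin genes CTSB (0.27) and CTSD (0.20) were also higher, whereas GLB1 (0.01) and LAMP2 (0.06) did not pass. The count stayed at 10 with the GC correction (list median GC 51.2%) and was 6 to 11 with single libraries left out.

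NRF2 targets had medians of -0.29 and -0.26 against DMSO with Fucotrim I and SGN-2FF, and between the inhibitors 3 of 19 were higher and 2 (SLC7A11, also in the ATF4 list, and AKR1C1) lower, near the 13.0% and 12.1% of all tested genes, with a median of 0.05. The AKR1C1 call was lost in 7 alternative fits, among them those without the first or second library of either inhibitor. NQO1 was at 416, 414 and 396 CPM with Fucotrim I, 396, 366 and 381 CPM with SGN-2FF and 569 to 595 CPM in DMSO, and TXNRD1 and OSGIN1 likewise lay well below DMSO with both. None of these 3 antioxidant genes passed between the inhibitors before the GC correction (0.10, -0.07 and 0.11), and NQO1 passed with it (0.15). HMOX1, heme oxygenase, was higher with Fucotrim I than with SGN-2FF (0.43). Metallothioneins, which bind metals and whose near-identical copies the counting may split, lay above DMSO with both inhibitors (medians 0.72 and 1.18), and 4 of 7 tested list members were lower with Fucotrim I than with SGN-2FF. MT2A was at 196, 154 and 184 CPM with Fucotrim I, 283, 243 and 229 CPM with SGN-2FF and 111 to 134 CPM in DMSO (log2 fold change between the inhibitors -0.50), and MT1E had -0.40. Leaving out single libraries gave 1 to 3 NRF2 targets higher and 1 to 2 lower. Corrected for GC content, 3 NRF2 targets were higher and 1 lower, and 1 metallothionein list member was higher and 4 lower.

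**Figure D5:**
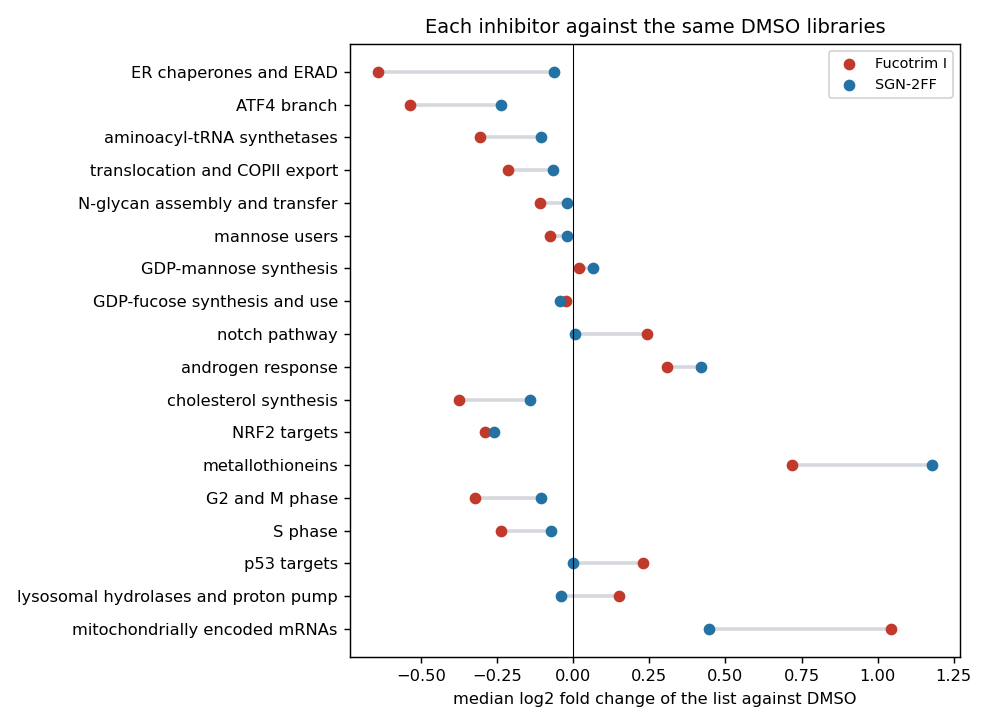
For each gene list on the y axis, the x axis gives the median log2 fold change against DMSO with Fucotrim I (red) and with SGN-2FF (blue), from separate fits that share the 3 DMSO libraries. The ER chaperone medians are -0.64 and -0.06, those of the NRF2 targets -0.29 and -0.26, and those of the metallothioneins 0.72 and 1.18.

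Among single genes chosen in the same way as the falls below, with a mean of at least 50 counts, the largest rises with Fucotrim I relative to SGN-2FF were those of SCRIB (2.48), CYP1A1 (2.08), TBATA (1.5), LINC01503 (1.35), SLC26A3 (1.19), DAPK2 (1.15), PTPRZ1 (1.13) and IQCN (1.13). SCRIB, a cell polarity gene, had 87, 217 and 87 counts with Fucotrim I, 25, 22 and 26 with SGN-2FF and 262, 26 and 250 in DMSO. Whether reads of SCRIB were lost to other copies or contigs in some libraries was not tested. The DMSO libraries covered nearly the whole range of both inhibitors, and the SCRIB call was lost whichever SGN-2FF library was left out. CYP1A1, a cytochrome P450 that the aryl hydrocarbon receptor induces, was at 138, 99.7 and 90.3 CPM with Fucotrim I, 28.0, 25.3 and 24.8 CPM with SGN-2FF and 45.1 to 50.2 CPM in DMSO, so that DMSO lay between the inhibitors (adjusted p = 0.00131, edgeR). Other targets of the same receptor, CYP1B1 (0.23), AHRR (0.03) and TIPARP (0.12), which were chosen after their values were seen, did not pass. AHRR shares 58.7% of its exon bases with another gene on the same strand.

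SLC26A3, an anion exchanger gene, was at 7.61, 7.31 and 7.27 CPM with Fucotrim I, 2.68, 3.01 and 4.08 CPM with SGN-2FF and 0.842 to 1.16 CPM in DMSO. TBATA had the same order, with 4.93 to 8.03 CPM, 1.98 to 2.70 CPM and 0.663 to 1.64 CPM. PTPRZ1, a receptor phosphatase gene, was at 5.44, 6.97 and 6.42 CPM with Fucotrim I and 2.60, 3.61 and 2.23 CPM with SGN-2FF, and DAPK2, a death-associated kinase gene, at 5.24 to 6.09 and 2.37 to 2.70 CPM. In DMSO PTPRZ1 was at 1.96 to 3.09 CPM and DAPK2 at 2.65 to 3.87 CPM, near their SGN-2FF levels.

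Among genes that averaged 50 or more counts and whose groups did not overlap, the largest falls were those of GPRC5A (-1.65), CCN2 (-1.53), ALB (-1.49), DKK1 (-1.41), HSPA5 (-1.40), ALDH1A1 (-1.37), CLDN1 (-1.37) and A1CF (-1.36). CCN2, a secreted matrix protein gene, was at 9.42, 12.3 and 7.69 CPM with Fucotrim I, 26.2, 27.5 and 32.3 CPM with SGN-2FF and 16.7 to 23.9 CPM in DMSO, so the inhibitors lay on either side of DMSO. GPRC5A, an orphan receptor gene, showed the same order at 2.17 to 3.80, 7.88 to 10.2 and 5.42 to 7.76 CPM. CCN1 (-0.44), the actomyosin gene MYL9 (-1.16) and the caveolin gene CAV1 (-1.15) were also lower, chosen after their values were seen and from no list. The CCN1 call was lost without the second SGN-2FF library. ANKRD1, chosen in the same way, had 3, 8 and 8 counts with Fucotrim I and 22, 29 and 23 with SGN-2FF (-1.85). It passed the filter on low counts only through the SGN-2FF libraries, so its fold change is not read as a result.

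DKK1, a secreted Wnt antagonist, was at 17.0, 22.7 and 21.5 CPM with Fucotrim I, 57.8, 50.3 and 54.6 CPM with SGN-2FF and 50.9 to 58.3 CPM in DMSO (log2 fold change -1.41, adjusted p = 1.13e-10, edgeR). The SGN-2FF and DMSO libraries of DKK1 overlapped. ALB, the albumin gene, was at 50.3, 67.3 and 74.5 CPM with Fucotrim I and 168, 194 and 176 CPM with SGN-2FF. ALDH1A1, which makes retinoic acid, was at 24.3, 28.0 and 29.6 CPM with Fucotrim I, 72.3, 67.3 and 72.2 CPM with SGN-2FF and 94.3 to 99.6 CPM in DMSO, and DHRS2, a carbonyl reductase gene, fell in the same order (-1.33) from 132 to 147 CPM in DMSO over 63.6 to 71.2 to 25.3 to 28.6 CPM. CLDN1, a tight junction gene, was at 2.19 to 2.37 CPM with Fucotrim I and 4.74 to 8.16 CPM with SGN-2FF.

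Transcripts of the mitochondrial genome set the Fucotrim I libraries apart from each other. The mitochondrial genome took 8.67, 11.9 and 14.2% of the counts with Fucotrim I, 8.27, 8.27 and 8.69% with SGN-2FF and 5.98 to 7.03% in DMSO. COX1 was at 17350, 24080 and 29172 CPM with Fucotrim I and 15143, 15033 and 15801 CPM with SGN-2FF. All 3 Fucotrim I libraries of COX1 lay above the SGN-2FF libraries but differed from each other by more than the gap between the groups. Of the 13 mRNAs 0 passed in edgeR's test with all 6 libraries (median log2 fold change 0.56, adjusted p = 0.112 for COX1), beside 25.1% of all tested genes. The groups did not overlap for 7 of them, beside 39.4% of all tested genes. Without the first Fucotrim I library 12 passed as higher, and without the third 5 did. At an unadjusted p under 0.05 edgeR gave 4 of the 13, whereas DESeq2 called 6 and limma-voom 12 after adjustment, so the call on these mRNAs depended on the tool and on the libraries in the fit. Leaving the mitochondrially encoded genes out of the fit gave 3548 calls in all in place of 3532.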

How the data were processed

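The authors made libraries with a stranded mRNA kit, trimmed single reads (Cutadapt), aligned to hg38 (HISAT2) and summed reads per gene (featureCounts). The deposited values are raw counts, in 1 table for each inhibitor, and every table repeats the DMSO libraries. The annotation release, the strand setting and the treatment of multi-mapping reads are not given in the sources used here, so overlapping and near-identical genes are uncertain. The members and gene lists were chosen with earlier results of these data known.

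Counts were joined by NCBI gene number, filtered with filterByExpr (minimum count 10, minimum total 15), scaled by TMM and tested with edgeR 4.0.16 in R 4.3.3 (robust quasi-likelihood fit, Benjamini-Hochberg adjustment over all 14053 genes, adjusted p under 0.05). CPM values are on 1 TMM scale for the 9 libraries, and fold changes come from the 6 inhibitor libraries. The test was tested on simulated data with known fold changes.

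The named genes were the 8 largest rises and falls among called genes that averaged 50 or more counts and whose groups did not overlap, preset genes of the fucose, mannose, ER stress, cell cycle, androgen, sterol and antioxidant pathways, and up to 2 members per direction of each list. Further list members were added after their values were seen, to show each list's range, as were CYP1B1, AHRR, TIPARP, CCN1, ANKRD1, CAV1, MYL9, PDIA4, HYOU1, STC2, STARD4, FDXR, COX1 and WIF1. Alternatives were DESeq2 1.42.0, limma 3.58.1 (voom), other filters, scalings and sample sets, a replicate block, and each library left out. Limma is the tool of the authors' own test. The GC correction, a lowess curve per library given to edgeR as offsets, was added after seeing the data. Positions, exon overlaps and GC content come from GENCODE on hg38 and promoters from RefSeq. Some list members are not reported here by name. The Fucotrim II and P-SiaFNEtoc libraries entered only the fit of all 14 libraries.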

Additional observations from a re-analysis of the deposited data

Results flagged for a closer look

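The SGN-2FF table holds 576 gene numbers that the Fucotrim I table lacks and that no comparison used. They took a mean of 0.0560% of the counts of the 3 SGN-2FF libraries and 0.0529% of those of the 3 DMSO libraries, and every SGN-2FF library (0.0550 to 0.0579%) lay above every DMSO library (0.0509 to 0.0541%).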

How the results depend on the processing

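The 3532 calls between Fucotrim I and SGN-2FF became 2384 to 4146 with single libraries left out, the 1825 higher ones 1188 (without the third SGN-2FF library) to 2104 and the 1707 lower ones 1176 to 2042. Beyond 0.58 on the log2 scale the 552 calls became 479 to 643, with 248 to 356 higher and 216 to 287 lower. At an adjusted p under 0.01 there were 1926 calls, 981 higher and 945 lower, and beyond 0.58 there were 198 higher and 185 lower. DESeq2 made 2755 calls and limma-voom 3441. Calls against DMSO were 4877 to 6297 for Fucotrim I and 1613 (without the second SGN-2FF library) to 3095 for SGN-2FF with single libraries left out. The replicate numbers did not pair the Fucotrim I with the SGN-2FF libraries (correlations of same-numbered libraries 0.25, -0.16 and -0.18). Pairing with the DMSO libraries was not tested. With the replicate number as a block there were 3667 calls between the inhibitors. Against DMSO the block gave 7288 calls in place of 6209 for Fucotrim I and 2843 in place of 2928 for SGN-2FF. Between the inhibitors the block turned the mitochondrial COX1 into a call (0.59, adjusted p = 1.79e-12, edgeR). Of the 98 named genes called, 77 were called in every fit that left out 1 library, and 97 kept their sign in every alternative. The exception was the glycolytic gene PFKL, called higher at 0.17, which had -0.00675 with the GC correction (adjusted p = 0.920, edgeR). Genes of few counts could not be tested at a depth of 12553094 to 16569554 counts, and for some of them loss of reads in mapping was not tested.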

Other observations

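Among gene groups outside the pathways above, genes of cytosolic and mitochondrial heat shock proteins had 6 of 16 tested members lower with Fucotrim I than with SGN-2FF and 0 higher, with a median log2 fold change of -0.11 (12.1% of all tested genes were lower). Leaving out single libraries gave 3 to 7 lower. The co-chaperone gene DNAJB1 was at 88.1, 83.6 and 83.5 CPM with Fucotrim I and 115, 110 and 109 CPM with SGN-2FF (-0.38), and HSPA8 (-0.37), DNAJB4 (-0.41, lost in 3 fits that left out 1 library, and -0.27 with the GC correction) and DNAJA1 (-0.29) were lower too, whereas HSP90AA1 (0.01), HSPB1 (0.08) and BAG3 (0.02) did not pass. HSPA1A and HSPA1B, which are near-identical copies, had at most 1 count and were not tested. Whether their reads were lost to the other copy or to other contigs was not tested either. After the GC correction 7 heat shock genes were lower and 1 higher.

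Glycolysis and hypoxia genes showed no common direction, with 2 of 23 higher and 5 lower (13.0% and 12.1% of all tested genes) and a median of 0.00. Leaving out single libraries gave 0 to 4 higher and 2 to 5 lower. EGLN3, an oxygen sensor, had the lowest value (-0.88, 2.83 to 3.04 CPM with Fucotrim I and 5.31 to 5.65 CPM with SGN-2FF), while VEGFA (0.16, adjusted p = 0.0700 in edgeR's test, and 0.0101 without the first Fucotrim I library), SLC2A1 (0.00) and ENO1 (0.01) did not pass. After that correction 1 was higher and 7 were lower. Of 9 tested interferon and MHC class I genes 3 were higher, ISG15 (0.53) at 135, 118 and 122 CPM with Fucotrim I and 88.2, 92.0 and 79.2 CPM with SGN-2FF, HLA-B (0.61) and STAT2 (0.28), and 0 lower, beside 13.0% and 12.1% of all tested genes. Correcting for GC content gave 6 higher. HLA-E and HLA-F were listed with at most 1 count in any library, and 32.8% of the exon bases of HLA-B are shared with other genes, so the HLA-B call is uncertain. WIF1, a secreted Wnt inhibitor that was chosen after its values were seen, was lower with Fucotrim I (-1.12) at 2.12 to 3.55 CPM against 4.75 to 7.72 CPM with SGN-2FF.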
